A study of Mus musculus with 8 samples.

Results

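The 80 genes described here encode the protein subunits of the cytosolic ribosome and their close paralogs, out of 13540 genes listed in a table of RNA levels during heart cell differentiation. They were chosen by symbol: Rps or Rpl followed by a number, with an optional letter, and Rplp0, Rplp1 and Rplp2, leaving out names marked as pseudogenes. By name and role, 28 encode proteins of the small subunit, 42 proteins of the large subunit and 3 the stalk. The other 7 are divergent paralogs, copies that carry a suffix and differ in sequence from a standard gene: Rpl10l, Rpl22l1, Rpl36al, Rpl39l, Rpl7l1, Rps27l and Rps4y2. No measured value entered the choice.

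Poly(A) RNA came from a mouse stem cell culture (strain 129/Ola) that was driven towards heart muscle. ESC stands for undifferentiated stem cells at day 0, MES for the mesoderm stage at day 4, CP for precursors of heart cells at day 5.3 and CM for heart muscle cells at day 10. Each stage had 2 libraries, called biological duplicates in the design, which makes 8 in all. The protocol gives embryoid bodies in serum-free medium, then reaggregation with VEGF, Activin A and BMP4, then plating with VEGF, basic FGF and FGF10; no genetic change is named for any stage. The table holds 1 value per gene and stage in RPKM (read numbers divided by gene length and by depth), so levels can be compared between genes. With no values for the separate libraries there is no SD, no replicate check and no test, and each difference below describes these stage values only. Depth, recovered from the steps between values, was 75.3, 62.0, 64.8 and 88.5 M reads (M for mega) at ESC, MES, CP and CM. All 80 genes gave whole read numbers at these depths, and the 95% intervals quoted for ratios are exact binomial intervals on those reads, which cover counting error only. The smallest whole numbers that work were kept. For some genes the true reads may thus be a multiple of those given, with a narrower interval.

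Stage markers went with the labels. Pou5f1, a pluripotency factor, had 670 RPKM at ESC and 0.0429 at CM, Mesp1 of early mesoderm had 148 at MES, and Myh6, the alpha myosin heavy chain of heart muscle, had 1614 at CM. Markers of other cells were present too. The summed level of 3 blood markers was 218 RPKM at CP and at most 5.03 at the other stages. That of 3 endothelial markers was 146 RPKM at CP and 76.6 at CM, against 16.6 at ESC and 0.714 at MES. Most of this sum at ESC was Pecam1 with 16.2 RPKM, while Cdh5 had 0.115 and Tie1 0.362. The summed level of 3 fibroblast and smooth muscle markers was 621 RPKM at CM against 2.90 to 150 elsewhere. Most of the 150 RPKM, at ESC, was Tagln with 134. The part of blood, endothelial, fibroblast and smooth muscle cells in the differences below was not tested. In such bulk samples, fewer cells of a type and less RNA per cell cannot be told apart.

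A ribosome holds 1 copy of most of its proteins, arranged around ribosomal RNA in a small subunit that decodes the message and a large subunit that forms peptide bonds. The messages of these proteins are among the most abundant in growing cells. Most begin with a C inside a run of pyrimidines at the transcription start, the TOP motif, through which mTORC1 and the RNA-binding protein LARP1 control their translation and stability. Ribosome production is high in pluripotent cells and in dividing cells, while muscle cells that leave the cell cycle make fewer new ribosomes.

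The pyrimidine run could be read from the mouse reference. RefSeq start windows (build GRCm38.p6) were found for 58 of the 80 genes, with 69 annotated starts. A run of at least 8 C or T within 10 bases of the start stood at 42.0% of these starts, against 13.7% of all 32851 starts of the same table. The windows below run from 20 bases before to 20 bases from the annotated start, with the run in capitals. The first 6 are examples of standard genes with a run, although most of the 69 starts had none of that length. The last pair is the start of the 2 paralogs whose RNA was nearly confined to ESC, where no such run was found. That is not particular to them. Of their standard partners, Rpl10 had a longest run of 3 bases and Rpl39 of 8. Of the other paralogs, Rpl7l1 had 2 and Rpl22l1 had 10.
Rpl7a, chr2:26910787-26910826, plus strand: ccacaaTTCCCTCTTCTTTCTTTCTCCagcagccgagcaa
Rpl27a, chr7:109519175-109519214, plus strand: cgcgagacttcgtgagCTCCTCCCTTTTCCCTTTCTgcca
Rpl35, chr2:39005112-39005151, minus strand: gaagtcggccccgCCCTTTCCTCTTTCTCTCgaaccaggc
Rpl15, chr14:18270967-18271006, minus strand: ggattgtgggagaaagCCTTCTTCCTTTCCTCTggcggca
Rpl4, chr9:64173367-64173406, plus strand: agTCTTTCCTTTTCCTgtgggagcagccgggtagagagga
Rps9, chr7:3704021-3704060, plus strand: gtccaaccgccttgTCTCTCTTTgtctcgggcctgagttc
Rpl10l, chr12:66284382-66284421, minus strand: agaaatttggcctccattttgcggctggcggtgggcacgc
Rpl39l, chr16:10170208-10170247, plus strand: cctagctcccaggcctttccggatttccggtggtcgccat

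Other motifs were counted on both strands of the 300 bases around each start, from 250 before it to 50 after it. CCGGAAG, a core of ETS-family sites, was in 36.2% of the ribosomal starts and 8.86% of all starts. AAGATGG, a core of YY1 sites, was in 15.9% against 6.34%. TATAAA was in 10.1% against 13.6%. These are matches of letters, and no factor's binding was measured.

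Summed over the 80 genes, the level was 8493 RPKM at ESC, 7035 at MES, 5568 at CP and 5177 at CM. Their share of the summed RPKM of all listed genes was 3.21, 2.77, 2.31 and 1.99% at the same stages. Their recovered reads, which can be too low for some genes, were 0.950, 0.819, 0.654 and 0.557% of the depth. The sum was thus lower at each stage than at the one before. The median gene had 20.5 RPKM at ESC, 18.2 at MES, 12.3 at CP and 9.51 at CM, against 6.07, 6.73, 7.11 and 6.50 over all listed genes. Of the 80 genes, 55 had their highest value at ESC (30.5% of all genes did), 19 at MES (22.8%), 3 at CP (17.0%) and 3 at CM (29.8%). The lowest value was at CM in 62 (39.4% of all genes), at CP in 16 (10.7%) and at MES in 2 (17.4%). In 39 of the 80 the level was lower at each of the 3 steps, a pattern that 16.5% of all genes had. A span of at least 2-fold over the stages was seen in 47 of the 80, where 63.2% of all genes had one.

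**Figure D1:**
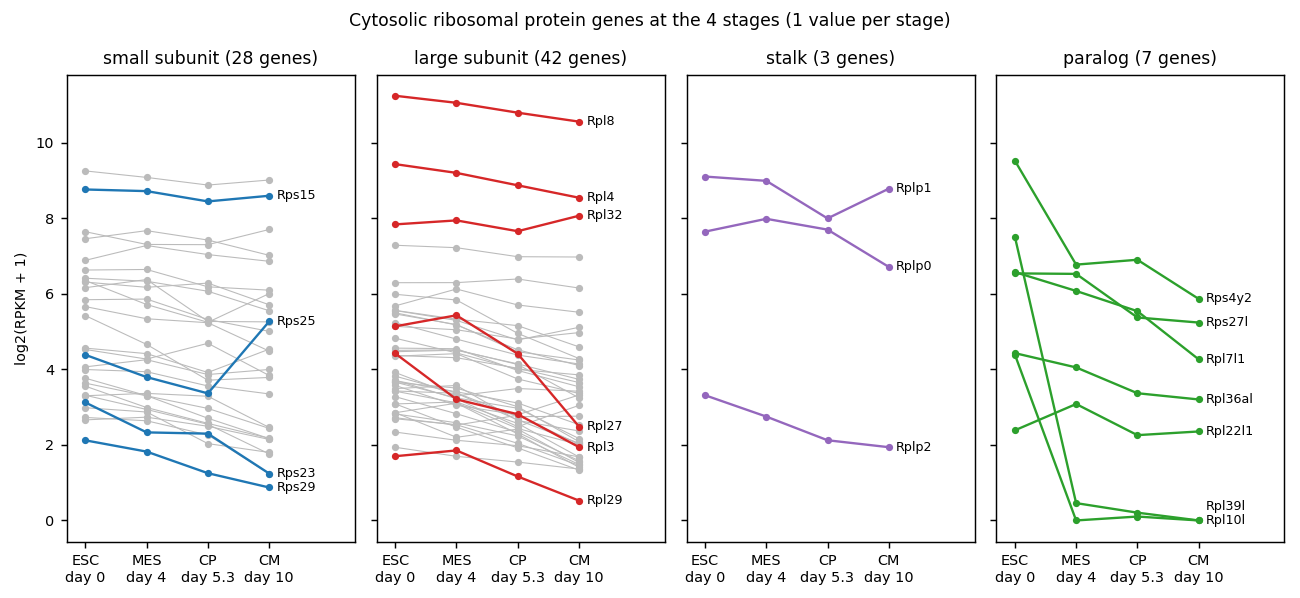
Level of each of the 80 genes at the 4 stages, as log2(RPKM + 1), in 4 panels for the small subunit, the large subunit, the stalk and the divergent paralogs; each line is 1 gene with 1 value per stage, and coloured lines are labelled. Most lines slope gently down; Rps25 turns up at CM, Rpl27 turns down there, and Rpl10l and Rpl39l lie at the bottom of the scale from MES on.

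The 73 standard genes did not have equal levels, although the ribosome needs their proteins in nearly equal amounts. Rpl8, a large subunit protein near the peptidyl transferase centre, had 2429 RPKM at ESC, 2134 at MES, 1780 at CP and 1510 at CM, and made up 28.6 to 31.96% of the sum over the 80 genes. Rpl4, which lines the exit tunnel, followed with 692, 589, 468 and 373 RPKM. The 5 highest genes of each stage held 59.1 to 62.3% of the sum. At the other end stood Rpl29 with 2.25, 2.62, 1.24 and 0.440 RPKM, Rps29 with 3.35, 2.54, 1.38 and 0.831, and Rpl19 with 4.07, 3.36, 2.94 and 2.21. The highest standard gene was 1079-fold above the lowest at ESC and 3433-fold above it at CM. An entry labelled Rpl24 had 2.83, 2.24, 1.92 and 1.57 RPKM, but GENCODE M21 gives its gene ID the symbol Zbtb11, so it is counted by its label and used for no statement on Rpl24.

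The level went with how much of a gene's sequence is shared. Ribosomal protein genes have many processed pseudogenes, copies of the message inserted elsewhere in the genome, and a read from shared sequence can fit several places. Of the 32-base words in the coding sequence, 10.9% of Rpl8, 18.1% of Rps3 and 37.6% of Rpl4 also occurred in other genes of GENCODE M21, whereas 100% of the words of Rps29 and Rpl19 and 98.9% of those of Rpl29 did. Across 72 standard genes (without the entry labelled Rpl24), Spearman's rho between mean RPKM and the shared percentage was -0.62. It is a description across genes that share these libraries. How the authors' counting treated reads that fit several places is not given in the sources used here, so the levels of genes with much shared sequence are uncertain.

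**Figure D2:**
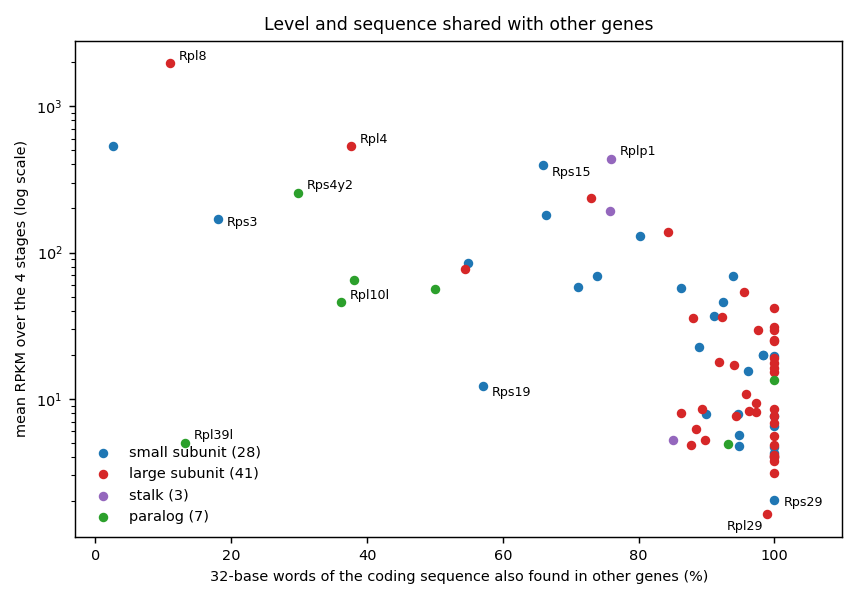
Mean RPKM over the 4 stages (log scale) against the percentage of 32-base coding words that other genes also hold, 1 point per gene, coloured by group, without the entry labelled Rpl24. Rpl8 and Rpl4 lie high at the left with little sharing, and the lowest standard genes, Rpl29 and Rps29, lie at the right near 100%.

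The table lists 34 pseudogene entries that share 32-base words with the 80 genes. Their summed level was 5558, 5294, 5130 and 3804 RPKM at ESC, MES, CP and CM, which is 65.4, 75.3, 92.1 and 73.5% of the sum over the 80 genes. These entries are short, and in recovered reads they took 0.297, 0.290, 0.282 and 0.204% of the depth, against the 0.950, 0.819, 0.654 and 0.557% of the 80 genes. Both sets of shares can be too low. Rps26-ps1 had 1294, 1182, 1013 and 883 RPKM beside 117, 155, 131 and 115 for Rps26, a protein at the message's exit channel. Gm13826, which M21 calls Rpl37rt, had 882, 668, 648 and 605 RPKM beside 5.59, 4.76, 5.90 and 3.05 for Rpl37. Rpl31 had 9.73, 7.66, 4.41 and 3.02 RPKM, and Gm8759, which M21 calls Rpl31-ps8, had 357, 278, 257 and 230. For each of these 3 genes the pseudogene entry was the higher of the pair at all 4 stages. They were chosen after their values were seen, except that Rps26 and Rpl37 also fall under the naming rule.

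From ESC to MES the standard genes moved little. Of the 80 genes, 0 were at least 2-fold higher on the log2(RPKM + 1) scale, where 11.1% of all genes were, and 4 were at least 2-fold lower, where 11.2% of all genes were. The median difference was -0.19 on that log2 scale against 0.05 over all genes, and 59 of the 80 were lower by any amount (46.8% of all genes). At a limit of 1.5-fold, 1 was higher (21.8% of all genes) and 11 were lower (19.4%). Among the 4, 3 were divergent paralogs, Rpl10l, Rpl39l and Rps4y2, and the other was Rpl3, a large subunit protein near the peptidyl transferase centre. Rpl3 had 20.5 RPKM at ESC and 8.24 at MES, 2.48-fold lower. Among the highest differences were those of Rpl22l1 at 0.70, Rps26 at 0.39 and Rplp0 at 0.34 (log2).

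From MES to CP nearly all genes of the ribosome were lower by a small step. The median difference was -0.39 (log2) against -0.03 over all genes, and 72 of the 80 were lower by any amount (52.4% of all genes). By at least 2-fold, 0 were higher (8.91% of all genes) and 3 were lower (3.91% of all genes). These were Rps27l, Rps2 and Rpl27. At 1.5-fold, 0 were higher (16.4% of all genes) and 21 lower (13.3%). Rps2, at the message's entry channel, had 70.7, 82.3, 37.6 and 37.3 RPKM over the 4 stages, so its values split into a high pair and a low pair. Rplp1 stood just short of 2-fold, with 509 RPKM at MES and 255 at CP. Against the common direction, Rpl7a was at 8.85 RPKM in MES and 10.3 in CP, with a CP over MES ratio of 1.16 (95% counting interval 1.06 to 1.27). For Rpl37 and Rpl17 the ratios were 1.24 (0.953 to 1.61) and 1.21 (0.869 to 1.68), on 105 and 69 recovered reads at MES. These intervals include 1, but they can be too wide. The gene model recovered for Rpl17, 309 bases, is shorter than its 552 coding bases, so its true reads may be a multiple of those given. Whether the 2 ratios differ from 1 by more than counting error is therefore open.

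From CP to CM the genes varied more than from MES to CP, as all listed genes did. Their quartiles were -0.69 and -0.10 (log2), after -0.61 and -0.25 at the step before. Over all genes the quartiles were -0.62 and 0.39, after -0.35 and 0.35. The median difference was -0.36 (log2) where all genes had -0.15, which leaves -0.22 relative to all genes, and 64 of the 80 were lower by any amount (58.2% of all genes). By at least 2-fold, 1 was higher (11.3% of all genes) and 5 were lower (12.8% of all genes). With each stage scaled to the same sum, which also gives the pseudocount less weight, 19 were lower, and with the differences centred on the median of all genes, 2 were lower. The share of all genes under these 2 settings is not given here, so the 2 counts cannot be set against the 12.8%. Scaling to the same sum also put the median of all genes at -0.29. At 1.5-fold, 4 were higher (19.4% of all genes) and 24 lower (26.6%).

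Rps25 was the 1 gene above. Its protein sits on the head of the small subunit and is known for its part in initiation at viral internal entry sites. It had 19.9 RPKM at ESC, 12.9 at MES, 9.30 at CP and 37.6 at CM, so CM was its highest and CP its lowest stage. The CM over CP ratio was 4.04 (95% counting interval 3.54 to 4.62) on 1473 and 267 reads, and 98.3% of its coding words occur in other genes. Rplp1 and Rps7 were also higher at CM than at CP, by less than 2-fold. Rps7 had 22.7, 20.4, 14.1 and 22.2 RPKM, lowest at CP and back near its earlier values at CM.

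Rpl27 had the lowest difference of the step. It had 34.3 RPKM at ESC, 42.2 at MES, 20.3 at CP and 4.61 at CM, 4.41-fold lower at CM than at CP and 7.44-fold lower than at ESC. It shares 100% of its coding words with other genes. Rps23, which reaches into the decoding centre, had 7.72, 4.03, 3.92 and 1.37 RPKM, with only 61 reads at CM. The other 3 were the paralogs Rpl7l1 and Rps4y2 and, chosen after its values were seen, Rps6, the substrate of the S6 kinases. Rps6 had 5.62, 5.23, 3.81 and 1.35 RPKM.

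Over the whole course, CM against ESC, 40 of the 80 genes (50.0%) were at least 2-fold lower, where 23.4% of all genes were, and 0 were at least 2-fold higher, where 22.2% of all genes were. The median difference was -1.01 (log2) against -0.03 over all genes, and 77 of the 80 were lower by any amount (51.2% of all genes). At 1.5-fold, 1 was higher (32% of all genes) and 58 were lower (33.3%). The 3 exceptions to the common direction were Rps25, Rpl32 and Rps14. Rpl32 had 228, 246, 201 and 268 RPKM, and its CM over ESC ratio was 1.17 (95% counting interval 1.14 to 1.21). Rps14 had 199, 158, 157 and 208 RPKM, with a ratio of 1.04 (1.023 to 1.061). Rps26, with 0.982 (0.941 to 1.03), differed by less than counting error.

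**Figure D3:**
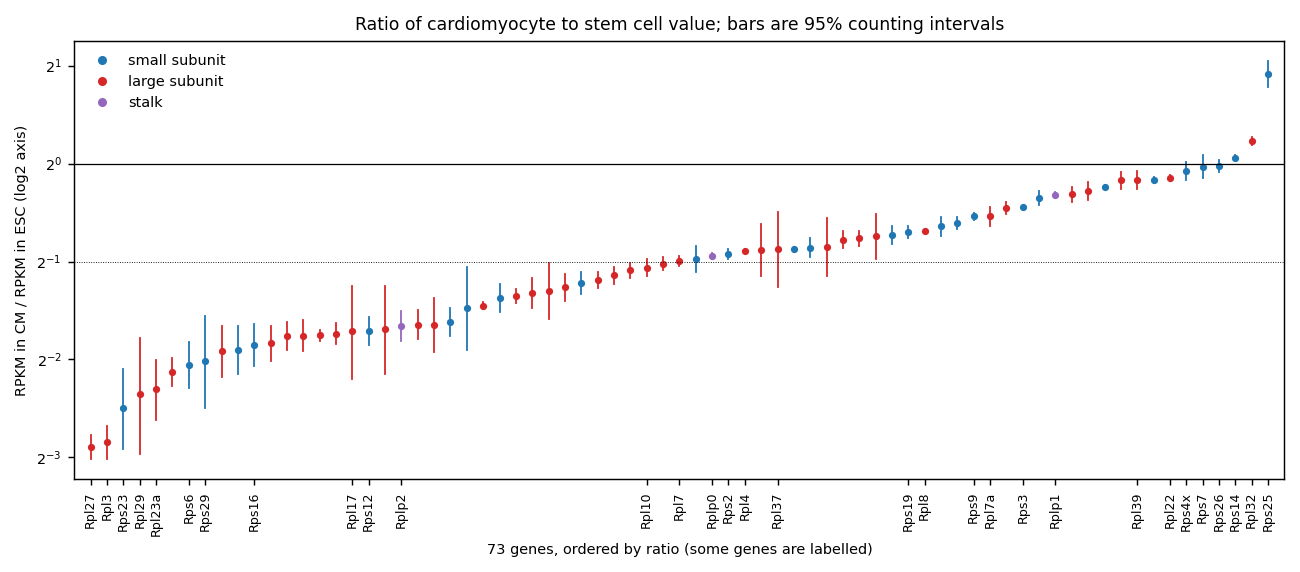
Ratio of the CM to the ESC value for the 73 standard genes, in order of size, on a log2 axis; bars are 95% exact binomial counting intervals on recovered reads, the solid line is a ratio of 1 and the dotted line 2-fold lower. Rpl27 and Rpl3 lie lowest, and Rps25, Rpl32 and Rps14 lie above 1.

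By role, 10 of the 28 small subunit genes were at least 2-fold lower at CM than at ESC (23.4% of all genes), with a median of -0.76 (log2), and 23 of the 42 large subunit genes, with a median of -1.08. Whether the subunits differ could not be tested. The lowest of the small subunit were Rps23 at -1.88, Rps12 at -1.64 and Rps16 at -1.60, and of the large subunit Rpl27 at -2.65, Rpl3 at -2.48 and Rpl23a at -1.75 (Rps12, Rps16 and Rpl23a were chosen after their values were seen). Rpl3 had 20.5, 8.24, 6.03 and 2.84 RPKM, lower at each step.

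The 3 stalk genes did not move together. Rplp0 anchors the stalk to the large subunit, and Rplp1 and Rplp2 form its flexible arms, which recruit elongation factors. Rplp0 had 200, 253, 207 and 104 RPKM over the 4 stages, highest at MES and lowest at CM. Rplp1 had 550, 509, 255 and 440, lowest at CP, with a CM over CP ratio of 1.73 (95% counting interval 1.68 to 1.77). Rplp2, which binds Rplp1 in pairs, had only 8.96, 5.73, 3.36 and 2.84 RPKM, lower at each step. From CP to CM, Rplp0 was thus lower and Rplp1 higher by more than counting error.

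The size of the CM against ESC difference went with level and with shared sequence. Of all listed genes, 23.4% were at least 2-fold lower. In the 37 standard genes with the higher mean, 9 were, a share of 24.3% near that of all genes, with a median of -0.69 (log2). In the 36 with the lower mean, 25 were (69.4%), with a median of -1.24, although the pseudocount understates the change of low genes. Of the 26 genes with all coding words shared, 20 were at least 2-fold lower (76.9%), with a median of -1.28. Of the 39 with 60% to below 100% shared, 14 were (35.9%), with a median of -0.84. Of the 7 with less than 60% shared (among them Rpl8, Rps3, Rpl4, Rpl22, Rps9 and Rps19), 0 were, with a median of -0.53, and all 7 were lower by some amount. The limit of 60% was set after the values were seen. Across the 72 genes, Spearman's rho of the difference was 0.57 with mean RPKM and -0.48 with the shared percentage, as descriptions. The median was below 0 in all 3 classes, and it was lower in the classes with more shared sequence. The part of read placement in the differences was not tested.

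Among the genes with less shared sequence, Rpl8 was 1.61-fold and Rpl4 1.85-fold lower at CM than at ESC, each lower at every step. Rps3 had a ratio of 0.737 (95% counting interval 0.728 to 0.745), Rps9 0.688 (0.673 to 0.703) and Rps19 0.615 (0.589 to 0.641). Rpl22 had 77.6, 77.7, 83.1 and 70.3 RPKM, a ratio of 0.906 (0.887 to 0.925), and the smallest span over the stages of the standard genes, 1.18-fold. Of the 34 pseudogene entries, 9 were at least 2-fold lower at CM than at ESC, a share of 26.5% near the 23.4% of all genes, with a median of -0.67.

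The divergent paralogs held the extreme values. Of the 7, 6 were at least 2-fold lower at CM than at ESC (23.4% of all genes), with a median of -2.31 (log2), and 6 of the 7 had their highest value at ESC (30.5% of all genes). Their summed level was 1151 RPKM at ESC, 290 at MES, 218 at CP and 125 at CM. Rps4y2 and Rpl10l made up most of the ESC sum.

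Rpl10l is an intronless copy of the X-linked Rpl10 and is known for its need in male germ cells, where the X chromosome is silenced. It lies at chr12:66283379-66284401 on the minus strand (GRCm38, from GENCODE M21). It had 182 RPKM at ESC, 0.375 at MES, 0.154 at CP and 0 at CM, on 8262, 14, 6 and 0 recovered reads. The gene model recovered with them, 603 bases, is shorter than the 642 coding bases, so the true reads may be a multiple of these. The MES value was 485-fold lower than the ESC value, and CM was at least 3236-fold lower, taking 3 reads as the floor of a count of 0. Rpl10 had 19.4, 20.4, 12.4 and 9.29 RPKM, so at ESC the copy was the higher of the pair and at the later stages the lower. The coding sequences are identical at 84.7% of positions and share no 32-base word. Rpl10 shares all its words with other genes, most of them pseudogenes.

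Rpl39l, likewise known from male germ cells, gave the same picture at a lower level. It lies at chr16:10170226-10174911 on the plus strand. It had 20.01 RPKM at ESC, 0 at MES, 0.0743 at CP and 0 at CM, on 1253, 0, 4 and 0 reads. MES was at least 344-fold and CM at least 491-fold lower than ESC. The X-linked Rpl39, a very small protein in the exit tunnel, had 34.2, 32.1, 27.0 and 30.4 RPKM, a span of 1.27-fold. The 2 coding sequences (GENCODE M21 on GRCm38, without the stop codon) are shown because they show how the 2 genes can be told apart. They are identical at 130 of 153 positions (85.0%), and the 23 positions that differ are in capitals.
Rpl39l: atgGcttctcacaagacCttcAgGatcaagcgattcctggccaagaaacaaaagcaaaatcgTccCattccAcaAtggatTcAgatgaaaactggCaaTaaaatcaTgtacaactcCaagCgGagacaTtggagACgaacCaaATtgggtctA
Rpl39: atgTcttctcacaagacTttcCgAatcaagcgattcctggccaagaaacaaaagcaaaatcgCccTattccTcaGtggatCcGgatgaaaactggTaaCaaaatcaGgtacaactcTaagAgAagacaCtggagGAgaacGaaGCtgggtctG

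The table's Rps4y2 had the highest level of the 7. GENCODE M21 calls this gene Rps4l, at chr6:148354656-148355598 on the plus strand, and classes it as a transcribed processed pseudogene, so its label as a Y-linked gene does not hold in that annotation. It had 737 RPKM at ESC, 109 at MES, 119 at CP and 57.4 at CM, 6.79-fold lower at MES than at ESC and 12.8-fold lower at CM. Its partner Rps4x, on the X chromosome, had 15.8, 18.1, 13.6 and 15.0 RPKM. The copy was thus above the standard gene at all 4 stages, with 79.9% identical positions and 96.0% of the words of Rps4x found in other genes.

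The remaining paralogs differed less between stages. Rpl7l1, a protein with a role in early large subunit assembly, had 94.5, 66.5, 45.6 and 18.2 RPKM, 5.18-fold lower at CM than at ESC and lower at each step, while Rpl7 had 46.3, 39.2, 34.7 and 23.2. At CM alone Rpl7 was the higher of the pair. Rps27l, known as a target of p53, had 92.2, 91.4, 40.5 and 36.8 RPKM, with most of its difference between MES and CP, 2.26-fold. Its partner Rps27 was not analysed here. Rpl36al had 20.6, 15.6, 9.33 and 8.22 RPKM and Rpl36a 6.22, 7.61, 3.90 and 1.65. Rpl22l1 was the exception, with 4.23, 7.48, 3.79 and 4.12 RPKM, highest at MES with a MES over ESC ratio of 1.77 (95% counting interval 1.43 to 2.19), and below Rpl22 at all 4 stages.

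**Figure D4:**
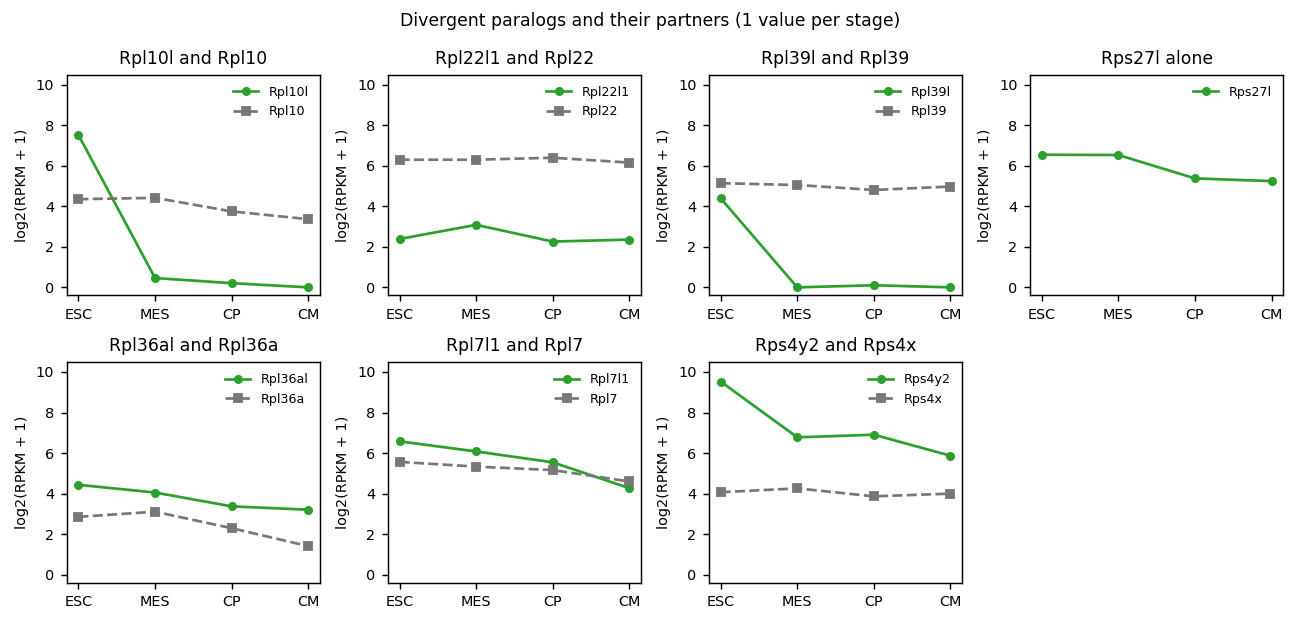
Level as log2(RPKM + 1) of each divergent paralog (solid green) and its standard partner (dashed grey) at the 4 stages, 1 value per stage. Rpl10l and Rpl39l lie well above 0 at ESC and near 0 from MES on, while Rpl39 is nearly level and Rpl10 is lower at CP and CM, and Rps4y2 lies above Rps4x throughout.

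Of the other names that match the rule in GENCODE M21, 8 gene IDs were not analysed here: Rpl24 under its own ID, Rpl32l, Rpl3l, Rpl41, Rpl6l, Rps12l1, Rps13 and Rps27. Rpl3l, the muscle paralog of Rpl3, is among them. A few ribosomal proteins have names outside the rule. Gnb2l1 (Rack1), a scaffold on the small subunit head, had 296, 275, 267 and 210 RPKM, with 4.67% of its coding words shared. Rpsa had 17.2, 12.4, 8.21 and 15.7, lowest at CP, and Fau, whose protein is a fusion of a ubiquitin-like part and Rps30, had 12.7, 7.59, 4.94 and 2.99.

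The genes that build ribosomes differed more than the ribosomal proteins themselves. Of 56 biogenesis factors in the table, 52 were at least 2-fold lower at CM than at ESC (23.4% of all genes) and 0 higher (22.2% of all genes), with a median of -2.20 (log2). Ncl, nucleolin, had 1180, 672, 326 and 126 RPKM, and Nolc1, a nucleolar phosphoprotein, 185, 122, 44.4 and 14.1. Heatr1, needed for ribosomal RNA transcription and processing, had 56.2, 33.8, 11.9 and 1.93, while Rrp1 had 126, 153, 127 and 103 and was among the few that differed little. Of 14 genes of RNA polymerase I and its factors, 11 were at least 2-fold lower (23.4% of all genes) and 0 higher, with a median of -1.35. Rrn3, the polymerase I initiation factor, had 95.4, 37.9, 29.5 and 21.3 RPKM, Polr1b 34.5, 20.2, 8.38 and 3.62, Ubtf 50.9, 41.0, 25.6 and 9.90, and Polr1c 67.0, 56.1, 36.2 and 26.7.

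Translation factors were more mixed. Of 19 elongation factors and other TOP messages, 3 were at least 2-fold higher (22.2% of all genes) and 7 lower (23.4% of all genes) at CM than at ESC, with a median of -0.54 (log2). Eef2, the translocation factor, had 1188, 1292, 1328 and 1659 RPKM, and Eef1a1, which delivers aminoacyl-tRNA, 927, 879, 670 and 866. Vim, an intermediate filament of mesenchymal cells, had 136, 199, 486 and 767, and Naca, which also has a long muscle isoform, 4.64, 4.18, 9.07 and 39.8. Of 32 initiation factors, 1 was higher (22.2% of all genes) and 14 lower (23.4% of all genes), with a median of -0.84. Eif5a had 328, 305, 147 and 58.9 RPKM and Eif1a 82.3, 48.0, 33.4 and 15.7, Eif4g2 had 313, 354, 240 and 119, and Eif3k had 291, 246, 227 and 214.

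Of 26 regulators around mTORC1, LARP1 and MYC, 3 were at least 2-fold higher at CM than at ESC (22.2% of all genes) and 8 lower (30.8%, against 23.4% of all genes), with a median of -0.45 (log2). Mycn and Myc, transcription factors that drive ribosomal genes, were among the lower: Mycn had 125, 72.7, 23.0 and 10.8 RPKM and Myc 31.995, 30.9, 7.59 and 4.23. Eif4ebp1, the translation repressor that mTORC1 inactivates, had 384, 165, 99.99 and 227 RPKM, lowest at CP, and Eif4ebp2 had 86.4, 108, 72.9 and 44.6.

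Cell cycle genes were lower over the course as well. All 19 were at least 2-fold lower at CM than at ESC, where 23.4% of all genes were, with a median of -2.81 (log2). Their medians were -0.07 from ESC to MES, -0.68 from MES to CP and -2.24 from CP to CM, and all 19 were lower at each of the last 2 steps; the first changes sign under quantile normalization. Mcm5, of the replicative helicase, had 251, 212, 99.6 and 8.10 RPKM, Mcm2 had 190, 137, 100.4 and 15.8, and Mcm6 had 129, 125, 70.1 and 8.08. The 80 ribosomal genes had medians of -0.19, -0.39 and -0.36 at the same steps, and a difference in timing between the lists was not tested. The 77 proteins of the mitochondrial ribosome, which makes the proteins encoded in the organelle, were at least 2-fold lower at CM than at ESC in 20 cases, a share of 26.0% near the 23.4% of all genes, and higher in 0 (22.2% of all genes), with a median of -0.65, and their summed level was 2206, 1881, 1444 and 1406 RPKM. The signs of the CM against ESC medians of all these lists were the same under 3 other scalings.

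**Figure D5:**
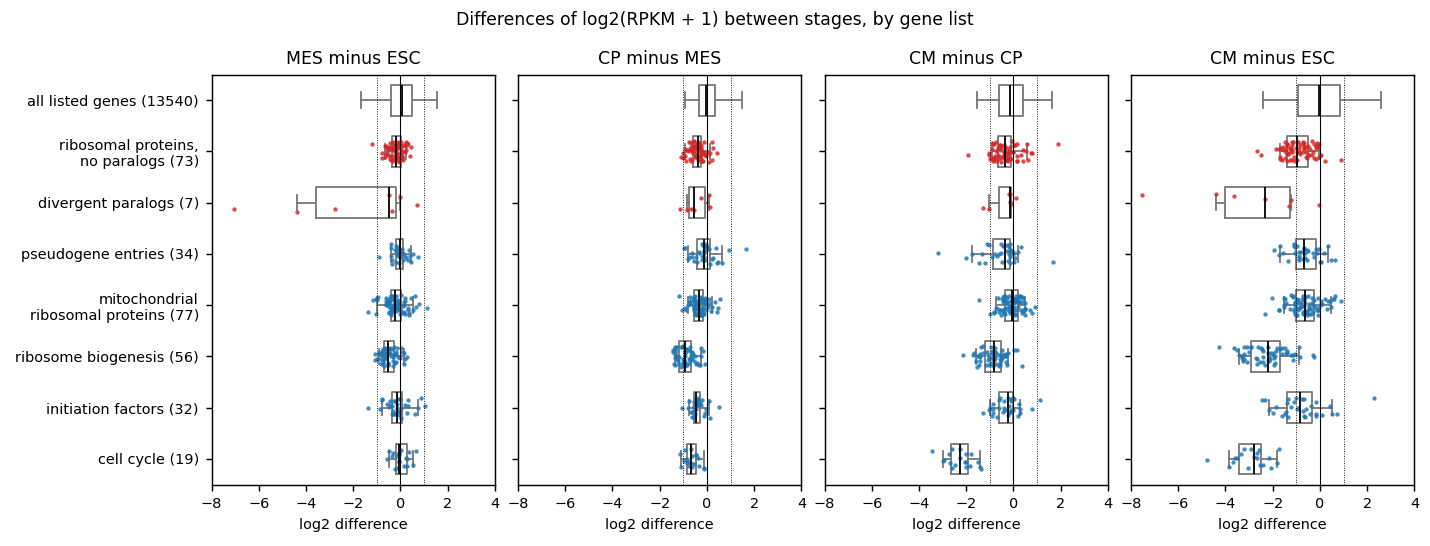
Differences in log2(RPKM + 1) for the 3 adjacent steps and for CM minus ESC, by gene list; boxes span the quartiles with the median, whiskers the 5th to 95th percentile, points are single genes, and dotted lines mark 2-fold. At CM minus ESC the 73 standard ribosomal protein genes centre near -1, above the 56 biogenesis factors at -2.20 and the 19 cell cycle genes at -2.81.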

How the data were processed

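The authors deposited RPKM values, 1 column per stage (per the file headers). Per the submitters' processing notes, Novoalign 2.07.00 was the aligner and mm9 the genome build. Not given in the sources used here were the read counter, annotation release, gene filter, handling of reads with several matches, and whether a column pools the 2 libraries. The lowest maximum over the stages is 1.00017 RPKM.

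Differences are log2(RPKM + 1), with a pseudocount of 1, and a gene counts as higher or lower from 2-fold. The plan had limma for separate libraries; with 1 value per stage nothing was tested. Reads were recovered as the smallest whole numbers that gave all 4 values (relative tolerance 4e-07) for a gene model of 100 to 30000 bases, for 13538 of 13540 genes and all 80 described here, against 18 of the 80 with wrong depth ratios. In reads simulated for the 80 genes, 76 came back exactly and the other 4 as whole divisors. A common factor would make the true intervals narrower than those given.

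Shared words came from the coding sequences of GENCODE M21 (GRCm38, another build than that of the files), and start windows from RefSeq on GRCm38.p6, where an entry was found for 58 of the 80 genes. All 80 gene IDs were in M21, 3 under another symbol (the entries Rpl24, Rps3a and Rps4y2). Named genes are the paralogs with their partners, the 4 largest differences each way in each comparison, the 4 highest and 4 lowest means, the stalk, names missed by the rule, and 2 to 4 genes of each further list; others are marked, and a few genes are not reported here by name. The genes and lists were chosen with earlier results of these data known. Python 3.11.15, numpy 2.4.6, pandas 2.3.3, scipy 1.17.1, Biopython 1.88 and matplotlib 3.10.9 were used. Alternatives were other pseudocounts, scalings, filters, fold limits and member sets.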

Additional observations from a re-analysis of the deposited data

How the results depend on the processing

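No paired analysis was possible because the table has 1 value per stage and its columns carry no replicate numbers; for the same reason no replicate could be left out. The depth limits genes with few reads, such as Rps23, Rpl29, Rps29 and Rpl39l. In 109 of 152 alternatives for the counts, medians and shares the value stayed within 1.5 times the count or within the spread used for it, in 43 it moved, and none of the medians over the 80 genes or the log2 differences of named ribosomal genes of at least 2-fold changed sign. Under quantile normalization the MES against ESC median was 0.10 in the 7 genes with less than 60% of words shared and 0.09 in the 3 stalk genes; the pseudogene entries (MES against ESC) and the mitochondrial ribosome (CM against CP) also had a median near 0 whose sign depends on the scaling. The cause of a move was not tested beyond what each setting does by construction. The pseudocount of 0.001, the set without the entry labelled Rpl24 and the set with less than 60% of coding words shared were chosen after seeing the data.

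At a minimum of 1.5-fold, the genes higher and lower numbered 1 and 11 for MES against ESC, 4 and 24 for CM against CP, 21 were lower for CP against MES, and 1 was higher for CM against ESC. With a pseudocount of 0.1, 6 were lower for CP against MES and 13 for CM against CP. With 0.5, 9 were lower for CM against CP. With 0.001, 1 was higher and 8 lower for CP against MES, and 16 lower for CM against CP. Scaling to equal sums gave 19 lower for CM against CP with a median of -0.52, where all genes had -0.29. Centring on all genes gave 2 lower for it, and quantile normalization gave 1 lower for CP against MES. Without the divergent paralogs, 1 was lower for MES against ESC and 3 for CM against CP. With only genes of at least 10 RPKM on average (46 of the 80), 2 were lower for MES against ESC, 3 for CM against CP with a median of -0.21, and 14 for CM against ESC with a median of -0.72. In the 7 genes with less than 60% of words shared, 0 were lower at any of the 3 steps or for CM against ESC and 0 higher for CM against CP, and the medians were -0.059 for MES against ESC, -0.26 for CP against MES and -0.53 for CM against ESC.

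The shares of summed RPKM at ESC, MES, CP and CM were 2.77, 2.65, 2.22 and 1.94% without the divergent paralogs, 3.33, 2.88, 2.43 and 2.08% with Rpsa, Fau and Gnb2l1 added, and 3.58, 3.05, 2.57 and 2.26% when the sum left out mitochondrially encoded genes and the 20 highest genes outside the ribosomal list. The share was lower at each later stage in all of these.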

Other observations

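Of the 34 pseudogene entries, Gm5805, which shares words with Rps14, had 422 RPKM at ESC, 459 at MES, 635 at CP and 532 at CM, while Rps14 had 199, 158, 157 and 208. Gm7536, which holds every coding word of Rpl27a, had 347, 261, 231 and 162 RPKM beside 22.6, 22.4, 14.7 and 10.6 for Rpl27a. Gm15500 had 225, 222, 216 and 142 RPKM beside 6.07, 5.01, 3.72 and 1.80 for Rpl5. Gm10119, which M21 calls Rps3a2, had 4.61, 7.08, 24.2 and 1.72 RPKM, highest at CP, while Rps3a had 8.96, 6.67, 4.84 and 2.39. These entries were chosen after their values were seen.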
